A study of Mus musculus with 21 samples.

Results

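The splenic dendritic cells (DCs) bound by the 33D1 antibody were compared between C57BL6 mice injected with Flt3L melanoma and wild-type C57BL6 mice. All 6 arrays whose titles name 33D1 DCs of these mice were taken, 3 of Flt3L melanoma mice and 3 of wild-type mice, out of 21 arrays in the series. Each array of the Flt3L melanoma group held RNA pooled from 20 mice killed on days 10 to 12 after the injection, and each wild-type array held RNA pooled from 40 to 80 mice. The labels name no injection for the wild-type mice, so effects of the ligand, of the tumour and of pool size cannot be told apart. The other arrays used here are 6 of DEC205 DCs, 3 of Flt3L melanoma mice and 3 of wild-type mice pooled in the same numbers. A further 9 are of wild-type lymphocytes (B cells, CD4 T cells or CD8 T cells), each pooled from 5 to 8 mice. All of these entered the fit and served as reference levels. Whether the pools of a group were prepared separately is not in the labels. The p-values rest on the spread among pools within all 7 groups, lymphocytes included, some of which may be technical.

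Flt3L is the ligand of the receptor tyrosine kinase Flt3, which is carried by DC precursors and by mature DCs, and its sustained supply enlarges the DC compartment of the spleen. The 33D1 antibody binds the CD8-negative DCs with high CD11c, the type 2 DCs, which are known for presenting antigen on MHC class II to CD4 T cells. Part of these cells depend on Notch2 signals in the spleen, and the adhesion molecule ESAM marks that Notch-dependent fraction.

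The question of the comparison was how a Flt3L melanoma changes gene expression in this subset. The values are array signals on a linear scale, brought by the authors to one overall brightness per array, and the medians of the 6 arrays lay between 136.7 and 180.8. Log2 signals correlated across genes with r between 0.973 and 0.975 among the 3 Flt3L arrays, between 0.964 and 0.979 among the 3 wild-type arrays, and between 0.955 and 0.974 across the groups. Genes within an array are not independent of each other, so r serves only as a description. Differences below are log2(signal + 48.6) in Flt3L mice minus wild-type mice, with standard errors, and the offset understates the change of dim genes. Genes with an adjusted p below 0.05 (limma, Benjamini-Hochberg over 13284 genes) are said to be called.

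The sort markers gave no call between the 2 groups. Itgax, which encodes CD11c, had a mean signal of 15627 in Flt3L mice and 17682 in wild-type mice. Ly75, the DEC205 antigen, stayed low, at 149 in Flt3L mice and 169 in wild-type mice, against 2401 and 2973 in DEC205 DCs of Flt3L and of wild-type mice. Cd8a averaged 263 in Flt3L mice and 209 in wild-type mice. Clec4a4, whose product the 33D1 antibody binds, had no probe set under its symbol alone and was not analysed here. Flt3 itself had signals of 6156, 7168 and 6716 in Flt3L mice, against 4738, 5567 and 4494 in wild-type mice. The Flt3 arrays did not overlap, but its difference of 0.44 ± 0.16 was not called (adjusted p = 0.285).

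One array has to be named before the results. Flt3L replicate 3 held more of several transcripts that are abundant in DEC205 DCs than the other Flt3L arrays. Rab7b, a GTPase of late endosomes, had signals of 74.6, 75.0 and 527 in Flt3L mice, against 13.3, 68.8 and 78.3 in wild-type mice. Irf8, the transcription factor of CD8-positive DCs, had 341, 371 and 2407 in Flt3L mice, against 249, 456 and 250.3 in wild-type mice. For both genes only the third Flt3L array stood apart. The 19 measured markers of CD8-positive DCs summed to 35105, 39630 and 44928 in Flt3L mice and to 31388, 35324 and 32865 in wild-type mice, against 188407 or more on every DEC205 array. None of these markers was at 0. Of the 19, Cd24a, a glycosylphosphatidylinositol-anchored glycoprotein, and Btla, an inhibitory receptor, were called higher, and the median difference was 0.32. Without Flt3L replicate 3, 0 of the 19 were called and the median was 0.02. Without wild-type replicate 3, 0 were called too, with a median of 0.39, so the lost calls are not particular to Flt3L replicate 3. Cd24a and Btla each kept their call in 2 of the 6 fits that left out 1 array. A count below that differs without Flt3L replicate 3 is given both ways.

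**Figure D1:**
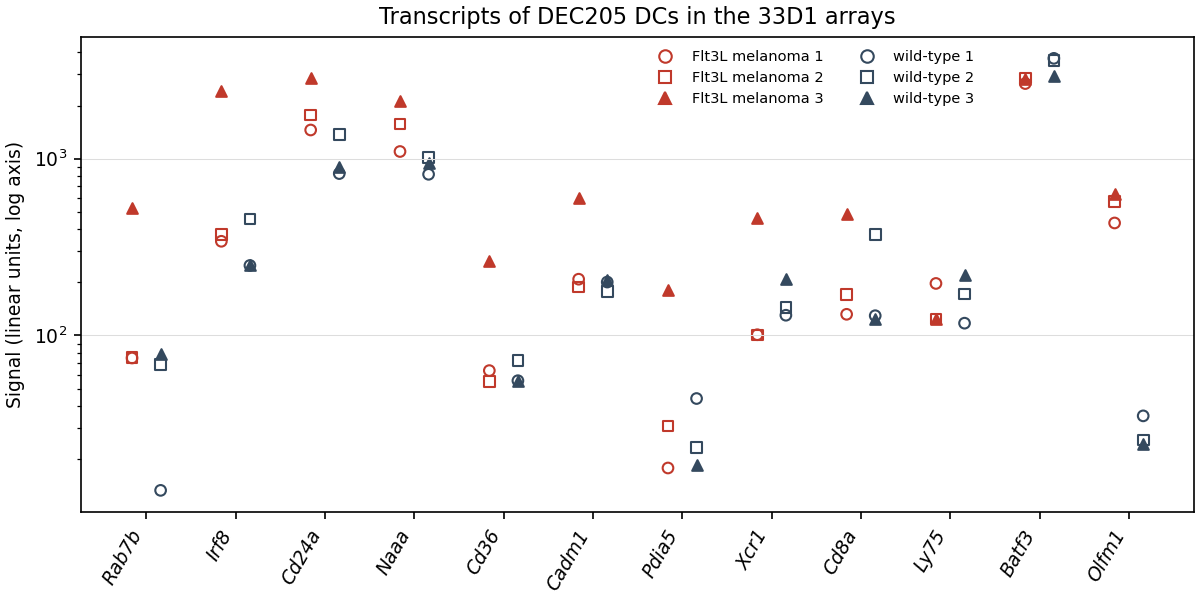
Signal (linear units, log axis) of 11 genes abundant in DEC205 DCs and of Olfm1 on each 33D1 array, with Flt3L arrays left of wild-type arrays and one symbol per replicate number. The filled red triangle, Flt3L replicate 3, lies above the other 5 arrays for genes such as Rab7b and Irf8, while for Olfm1 all 3 Flt3L arrays lie above all 3 wild-type arrays.

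Of 13284 genes tested, 134 (1.01%) were called. The Flt3L arrays were higher for 113 genes (0.851%) and lower for 21 (0.158%), 52 and 15 of them by at least 2-fold. For all 134 the 3 Flt3L arrays lay entirely on one side of the 3 wild-type arrays, as was the case for 18.4% of all genes tested. Without Flt3L replicate 3, 73 of the 134 were still called, 62 higher and 11 lower. Leaving out each of the 6 arrays in turn, 44 genes were called every time, 37 higher and 7 lower. The median difference of all genes was 0.00.

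**Figure D2:**
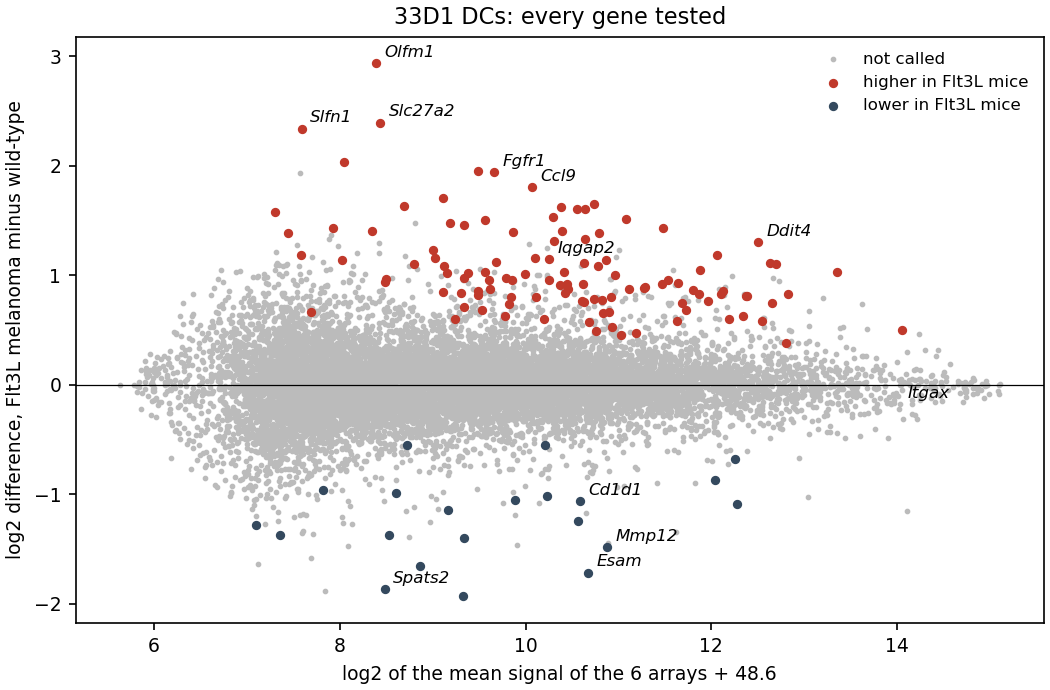
Log2 difference, Flt3L melanoma minus wild-type (vertical axis), against the log2 of the mean signal of the 6 arrays plus the offset of 48.6 (horizontal axis), 1 point per gene tested in 33D1 DCs. Red points are the 113 genes called higher and dark blue points the 21 called lower. Olfm1 has the highest difference, 2.93.

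Olfm1, an olfactomedin-domain glycoprotein best known as a secreted protein of neurons, rose furthest. Its signals were 433, 571 and 630 in Flt3L mice, against 35.1, 25.6 and 24.4 in wild-type mice. All 3 Flt3L arrays were far brighter than any wild-type array. The log2 difference was 2.93 ± 0.18 (adjusted p = 4.4e-09), and it was 2.83 without Flt3L replicate 3. In DEC205 DCs, where Olfm1 is abundant, the means were 5275 in Flt3L mice and 3260 in wild-type mice, a smaller difference of 0.71 ± 0.18. The level of Olfm1 in 33D1 DCs of Flt3L mice therefore stayed below that in DEC205 DCs of either mouse group.

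Slc27a2, a fatty acid transporter and very-long-chain acyl-CoA synthetase, followed. It had signals of 438, 632 and 527 in Flt3L mice, against 82.6, 70.7 and 35.3 in wild-type mice, a difference of 2.39 ± 0.28 (adjusted p = 0.00012). The groups were far apart on every array. In DEC205 DCs its mean signal was 14.5 in Flt3L mice and 14.7 in wild-type mice, and in B cells and CD4 T cells it was 19.5 and 14.4, all under the table's median of 156.3. Genes entered the fit with a signal over that median on at least 3 of the 21 arrays, and Slc27a2 passed only through the 3 Flt3L arrays of 33D1 DCs, so among genes tested it had to be higher there. Scn3a and Spats2, described below, likewise passed only through the wild-type 33D1 arrays, and the other called genes did not depend on the group where they were brighter.

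Slfn1, a Schlafen family gene first described in developing T cells, had signals of 257, 316 and 246 in Flt3L mice, against 17.7, 11.3 and 15.5 in wild-type mice (2.34 ± 0.30, adjusted p = 0.00014). Its 3 wild-type signals were among the dimmest of the named genes. CD4 T cells had a mean of 6286 for Slfn1, and the part of T cells in its rise was not tested. Of the 11 measured T cell markers 0 were called, 8 had differences above 0, the median was 0.10, and their summed signal was 1193 to 1506 in Flt3L mice and 1227 to 1318 in wild-type mice, against 112892 or more in CD4 T cells. The T cell chains Cd3e, Cd3d and Cd3g had means of 60, 23.4 and 61 in Flt3L mice. Of the 6 Schlafen genes tested, Slfn9 was also called higher (1.43 ± 0.33), a call that held in 1 of the 6 leave-one-out fits, and Slfn8 (0.74 ± 0.20) and Slfn2 (-0.26 ± 0.17) were not called.

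Xdh, the xanthine oxidoreductase of purine breakdown, had signals of 335, 344 and 455 in Flt3L mice, against 55.1, 48.0 and 60.7 in wild-type mice (2.04 ± 0.27). Fgfr1, a receptor of fibroblast growth factors, had 1029, 1271 and 1414 in Flt3L mice, against 267, 336 and 255 in wild-type mice (1.94 ± 0.25, adjusted p = 0.00015). Both genes were called in every leave-one-out fit. Fgfr1 was called higher in DEC205 DCs as well, with means of 1259 in Flt3L mice and 325 in wild-type mice (1.77), whereas the Xdh difference there, 0.37, was not called.

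Ahnak, a very large scaffold protein under the plasma membrane, had 583, 787 and 1977 in Flt3L mice, against 195, 271 and 189 in wild-type mice. The third Flt3L array was the brightest by far, and the difference of 1.95 ± 0.33 became 1.46 without it, still called. DEC205 DCs have more Ahnak, at means of 4916 in Flt3L mice and 1710 in wild-type mice, and it was called higher there too. Kcnn4, a calcium-activated potassium channel (1.71 ± 0.26), Sdc3, a heparan sulfate proteoglycan (1.65 ± 0.30), and Kctd14, a potassium-channel-tetramerisation-domain protein (1.62 ± 0.21), were called in all 6 leave-one-out fits. Qpct, which forms pyroglutamate at protein ends, was dim at 120, 258 and 177 in Flt3L mice, against 76.4, 12.4 and 9.5 in wild-type mice (1.57 ± 0.35). It kept its call in only 2 of the 6 leave-one-out fits. Qpct was also called higher in DEC205 DCs, where it had means of 1091 in Flt3L mice and 380 in wild-type mice.

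**Figure D3:**
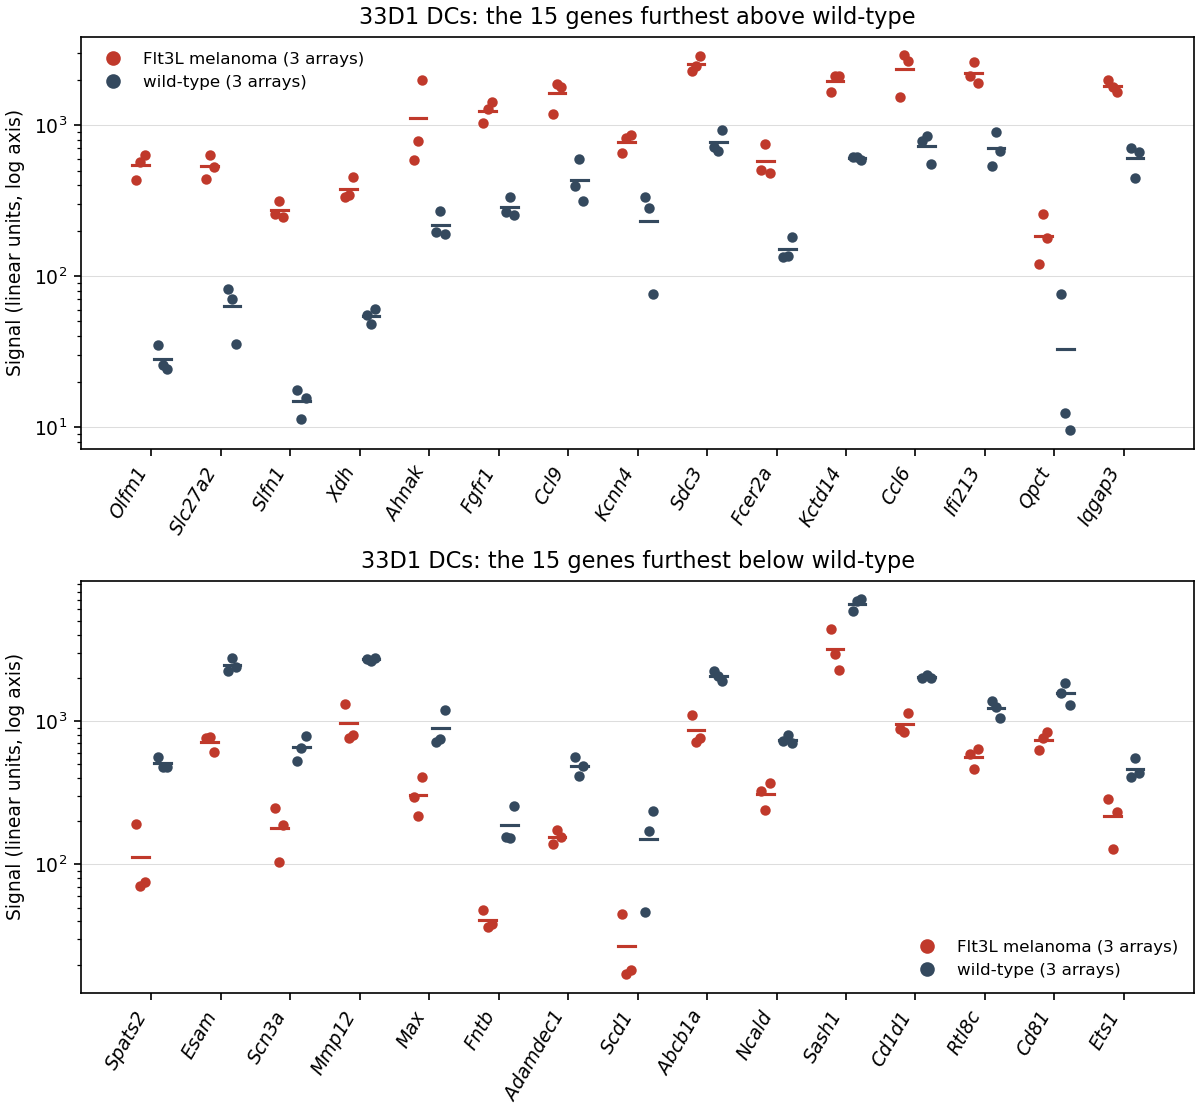
Signal (linear units, log axis) on each array for the 15 called genes furthest above wild-type (upper panel) and the 15 furthest below (lower panel), unnamed clones passed over, with Flt3L melanoma in red left of wild-type in dark blue and bars at the mean of 3 arrays. For each gene the 3 Flt3L arrays lie entirely on one side of the 3 wild-type arrays, with the narrowest gap for Scd1, 45.4 in Flt3L mice against 46.9 in wild-type mice.

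Among the 23 measured chemokines and chemokine receptors, 2 were called, both higher, against 0.851% of all genes tested. Ccl9, a CC chemokine of myeloid cells, had signals of 1192, 1873 and 1796 in Flt3L mice, against 396, 598 and 313 in wild-type mice (1.80 ± 0.30). Ccl6, its neighbour on chromosome 11 and a related CC chemokine, had 1540, 2889 and 2640 in Flt3L mice, against 789, 842 and 549.8 in wild-type mice (1.60 ± 0.26). Neither gene's groups overlapped, and both calls held in every leave-one-out fit. In DEC205 DCs the differences of Ccl9 and Ccl6 were -0.06 and -0.19, not called. Cxcr3, a receptor of interferon-induced chemokines (1.05, adjusted p = 0.10), and Ccr2, the receptor of the monocyte chemoattractant Ccl2 (1.29, adjusted p = 0.23), were not called.

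Fcgr2b and Fcer2a, both receptors of immunoglobulins, were higher in Flt3L mice. Fcgr2b, the inhibitory IgG receptor, was the 1 called gene of 20 measured C-type lectins and uptake receptors, with 1258, 2977 and 2590 in Flt3L mice, against 792, 888 and 779 in wild-type mice (1.33 ± 0.23). Fcer2a, the low-affinity IgE receptor CD23, had 502, 747 and 480.0 in Flt3L mice, against 134, 135 and 182 in wild-type mice (1.64 ± 0.30). Both had groups that did not overlap. Fcer2a is abundant in B cells, at a mean of 13032. The other 12 measured B cell markers were not called, among them Ms4a1 (-0.49) and Cd79a (-0.13), and the summed B cell markers were 16676 to 19931 in Flt3L mice and 16212 to 20393 in wild-type mice, against 193490 or more in B cells.

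Further called genes were picked after their values were seen. Lgals1, which encodes galectin-1, had a mean of 4127 ± 643 (SD) in Flt3L mice and 1491 ± 134 in wild-type mice (1.43 ± 0.20). Vim, which encodes vimentin, averaged 14068 ± 2722 in Flt3L mice and 6805 ± 800 in wild-type mice (1.03 ± 0.16). Iqgap2 and Iqgap3, scaffolds of the actin cytoskeleton, rose by 1.14 ± 0.12 and 1.53 ± 0.29, while Iqgap1 had a difference of -0.10. Spn, the sialoglycoprotein CD43 (1.31 ± 0.16), and Crip1, a LIM-domain protein (1.18 ± 0.17), were called in all 6 leave-one-out fits.

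Far fewer genes were lower, and Esam had the smallest adjusted p among them. Esam, the adhesion molecule that marks the Notch-dependent type 2 DCs, had signals of 767, 776 and 606 in Flt3L mice, against 2247, 2765 and 2370 in wild-type mice. Every Flt3L array was well below the dimmest wild-type array. The difference was -1.72 ± 0.20 (adjusted p = 9.1e-05), and it was called in all 6 leave-one-out fits. Esam was also called lower in DEC205 DCs, where it was dim, at 297 in Flt3L mice and 576 in wild-type mice (-0.84).

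Of the 17 measured genes of the ESAM and Notch list, Esam alone was called, and the list's median was 0.04. Of the 17 differences 9 were above 0 and 8 below. The arrays lay entirely higher for 2 genes and entirely lower for 5, against 10.5% and 7.9% of all genes tested. Hes1, a direct Notch target, had 568, 390 and 555 in Flt3L mice, against 1011, 1440 and 940 in wild-type mice (-1.09 ± 0.29, adjusted p = 0.078). Dtx1, another Notch target, had 6503, 4781 and 5272 in Flt3L mice, against 11842, 11912 and 9992 in wild-type mice (-1.03 ± 0.32, adjusted p = 0.161). Jag1, a Notch ligand, had 886, 711 and 615 in Flt3L mice, against 1241, 1281 and 1332 in wild-type mice (-0.78 ± 0.24, adjusted p = 0.161). The arrays of these genes did not overlap, as held in the same direction for 7.9% of all genes, but none was called. The receptor Notch2 (0.13) and its nuclear partner Rbpj (0.34) were not called, nor was Cd4 (-0.49), which is carried by most of the ESAM-positive cells.

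Mmp12, the macrophage elastase, had signals of 1320, 765 and 800 in Flt3L mice, against 2723, 2633 and 2749 in wild-type mice. The 3 wild-type arrays were close to each other, and all 3 Flt3L arrays were well below them. The difference was -1.49 ± 0.29 (adjusted p = 0.011), but with 1 array left out it was called in only 1 of 6 fits, and its adjusted p was 0.078 without Flt3L replicate 3. Adamdec1, a disintegrin-metalloprotease of macrophages and DCs, had 139, 175 and 155 in Flt3L mice, against 558, 412 and 485 in wild-type mice (-1.38 ± 0.27), and was called in 4 of the 6 fits. These were the 2 genes called lower of 19 measured metalloproteinases and secreted proteases, against 0.158% of all genes tested. Without Flt3L replicate 3 the count was 1, and the list's median was -0.16. The 10 measured markers of red pulp macrophages and monocytes had differences below 0 as well, with 0 called and sums of 11467 to 14593 in Flt3L mice and 13286 to 19146 in wild-type mice. Their part in the lower Mmp12 was not tested.

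Spats2, a cytoplasmic RNA-binding protein, had the lowest difference among named genes, with 191, 70.3 and 75.0 in Flt3L mice, against 559, 481 and 481 in wild-type mice (-1.87 ± 0.31). An unnamed clone, 2900052N01Rik, was lower by -1.93. Cd1d1, which presents lipids to natural killer T cells, had 887, 840 and 1141 in Flt3L mice, against 2008, 2091 and 1988 in wild-type mice (-1.06 ± 0.16, adjusted p = 0.00097). Both named genes were called in all 6 leave-one-out fits.

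Cd81, a tetraspanin (-1.02 ± 0.17), Ets1, a transcription factor abundant in lymphocytes (-0.99 ± 0.16), and Rtl8c, a retrotransposon-derived gene of chromosome X (-1.06 ± 0.16), were likewise called in all 6. Scn3a, a sodium channel subunit (-1.66 ± 0.33), and Max, the partner of Myc (-1.40 ± 0.27), kept their calls in 3 and 4 of the 6. Fntb, a farnesyltransferase subunit next to Max on chromosome 12, fell by 1.38 and kept its call in 0 of the 6. Abcb1a, a drug efflux pump (-1.24 ± 0.28), and Scd1, a fatty acid desaturase (-1.28 ± 0.31), kept theirs in 1 and 2. Sash1, a scaffold protein (-1.09 ± 0.22), and Ncald, a neuronal calcium sensor (-1.15 ± 0.24), each kept theirs in 2.

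Genes of cell division leaned upward together, although few passed the test singly. Of 32 measured genes of mitosis, 3 were called higher, against 0.851% of all genes tested, and 0 lower. The median difference was 0.80, and all 32 differences were above 0. The 3 Flt3L arrays lay above the 3 wild-type arrays for 28 of the 32 (87.5%), against 10.5% of all genes tested. The summed signal of the list was 85278, 74969 and 72854 in Flt3L mice, against 47950, 40969 and 45547 in wild-type mice, which do not overlap. With 3 arrays against 3 no exact test of such a sum can go below 0.1.

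Plk1, a kinase that drives mitotic entry (1.01 ± 0.24, adjusted p = 0.042), Cks2, a partner of cyclin-dependent kinases (0.87 ± 0.20, adjusted p = 0.030), and Cenpa, the histone of the centromere (0.80 ± 0.19, adjusted p = 0.041), were the called members. Mki67, which encodes the proliferation antigen Ki-67, had 6392, 7156 and 6340 in Flt3L mice, against 3634, 3450 and 4086 in wild-type mice. Its arrays did not overlap, and its difference of 0.83 ± 0.38 was not called. The count of called genes in the list was 24 of 32 in a fit of the 6 33D1 arrays alone, and 0 or 1 when any of the 6 arrays was left out. The median lay between 0.68 and 0.85 in all of these.

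Of 30 measured genes of DNA replication, 1 was called, Pold1, the catalytic subunit of DNA polymerase delta (0.77 ± 0.17), which kept its call in 1 of 6 leave-one-out fits. The median was 0.49, and 28 differences were above 0. Flt3L arrays lay entirely above the wild-type arrays for 23 of the 30 (76.7%), against 10.5% of all genes tested. Tk1, thymidine kinase, had 2763, 2357 and 3427 in Flt3L mice, against 1338, 1198 and 1007 in wild-type mice (1.23 ± 0.38, not called). Outside the lists, E2f8, a transcription factor of the cell cycle, rose by 1.40 ± 0.29 and Brca1, a DNA repair factor, by 0.95 ± 0.22, with calls in 0 and 1 of the 6 fits. Of 8 condensin genes tested, a family picked after its values were seen, 3 were called higher, against 0.851% of all genes tested. These were Ncaph (0.96), Ncapd2 (0.92) and Smc4 (0.60). Ncaph and Ncapd2 kept their calls in 0 of the 6 fits and Smc4 in 1. In DEC205 DCs the mitosis and replication lists had medians of 0.74 and 0.63, and 0 members of either differed between the subsets by the test.

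The promoters of the mitosis genes were searched for the cell cycle homology region (CHR), TTTGAA on either strand, and for the CCAAT box, CCAAT on either strand, in the 250 bases before the start of each gene in a RefSeq table of GRCm38.p6. The CHR letters were in 9 of the 26 mitosis promoters matched (34.6%), against 16.3% of all promoters of the table and 10.8% of those of the genes tested. CCAAT was in 22 of the 26 (84.6%), against 34.5% of all promoters and 35.8% of those of genes tested. The windows of Cdk1, the mitotic kinase, and of Cdc20, an activator of the anaphase-promoting complex, are shown as examples of a match near the start, with CHR in capitals, 5′ to 3′ on the strand of the gene.
Cdk1, chr10:69352913-69352957, minus strand: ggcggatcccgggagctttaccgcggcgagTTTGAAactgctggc
Cdc20, chr4:118437344-118437391, minus strand: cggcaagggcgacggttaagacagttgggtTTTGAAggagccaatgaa
The CHR ended 9 bases before the start of Cdk1 and 12 bases before that of Cdc20. Among the 9 matched promoters this distance went up to 161 bases, in Ccnb2, a mitotic cyclin. Such a match is a description of the letters and not a measured binding site. Cdk1 had signals of 2877, 2244 and 2355 in Flt3L mice, against 1485, 1135 and 1143 in wild-type mice (0.97 ± 0.45, not called).

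Interferon-stimulated genes also leaned upward. Of 29 measured, 7 were called higher, against 0.851% of all genes tested, and 0 lower. The median difference was 0.71, and 26 differences were above 0. Flt3L arrays lay entirely above the wild-type arrays for 24 (82.8%), against 10.5% of all genes tested. Oasl2, an antiviral protein of the oligoadenylate synthetase family, had 3534, 3729 and 2263 in Flt3L mice, against 1038, 1223 and 930 in wild-type mice (1.51 ± 0.36, adjusted p = 0.042). Mx1, an antiviral GTPase, had 1660, 2020 and 1385 in Flt3L mice, against 777, 896 and 925 in wild-type mice (0.91 ± 0.20, adjusted p = 0.021). For both genes the groups did not overlap, and Flt3L replicate 3 was the lowest of the Flt3L arrays.

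Oasl1 (0.84 ± 0.18) and Oas1a (0.83 ± 0.19), of the same family as Oasl2, were called, as were Rsad2, the antiviral enzyme viperin (1.08 ± 0.26), Ifit3, which binds to the machinery of translation and signalling (means 2622 in Flt3L mice and 1277 in wild-type mice), and Bst2, the virus-tethering protein tetherin (0.96 ± 0.23). Irf7, a transcription factor of the interferon response, had 4413, 4552 and 3890 in Flt3L mice, against 2771, 2467 and 2284 in wild-type mice and was not called (0.76, adjusted p = 0.131). Gbp2, Gbp3 and Cxcl9, with differences of -0.08, -0.09 and -0.02, were the 3 members of the list below 0. Without Flt3L replicate 3, 4 of the 29 genes were called, and between 0 and 1 without any other single array, with medians from 0.59 to 0.77. In DEC205 DCs 4 of the 29 were called higher and 1 lower, with a median of 0.41, and 0 differed between the subsets by the test.

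Markers of plasmacytoid DCs, a cell type rich in interferon-related transcripts, were higher in sum, at 6983, 6533 and 8353 in Flt3L mice, against 5761, 5659 and 5013 in wild-type mice. Of its 9 measured genes Bst2 alone was called, and Bst2 is also among the called interferon-stimulated genes. Without Flt3L replicate 3 none of the 9 was called, but Bst2 kept its call in 0 of the leave-one-out fits. The lost call is therefore not particular to that array. Most of the sum was Spib, Tcf4 and Bst2, with means of 2916, 1947 and 1174 in Flt3L mice, against 2229, 1430 and 577 in wild-type mice. The list is not particular to plasmacytoid DCs, as its sum was 38279 or more on every B cell array. There Spib and Tcf4 had means of 13986 and 3534, and the series holds no array of plasmacytoid DCs. Siglech, the defining gene of plasmacytoid DCs, had means of 232 in Flt3L mice and 121 in wild-type mice (0.69, adjusted p = 0.51). The part of these cells in the interferon-stimulated genes was not tested, and in bulk RNA more cells of a type and more RNA per cell cannot be told apart.

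The Ifi200 cluster of chromosome 1, a family of DNA-binding proteins induced by interferon, held 3 genes called higher of 6 tested. That compares with 0.851% of all genes tested, and the cluster was looked at after its values were seen. Ifi213 had 2105, 2617 and 1901 in Flt3L mice, against 534, 903 and 676 in wild-type mice (1.60 ± 0.33). Ifi207 (1.39 ± 0.18) and its neighbour Mndal (0.83 ± 0.16) were also called, Ifi207 in all 6 leave-one-out fits and Ifi213 and Mndal in 3 each, while Aim2, the DNA sensor of an inflammasome, had a difference of -0.17. Probe sets of this family can share sequence between its members, so the split among them is uncertain.

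The interferon-stimulated response element (ISRE) was searched as GAAA, any 2 bases and GAAA again, on either strand in the same promoter windows. It was in 11 of 23 matched promoters of the list (47.8%), against 3.0% of all promoters and 2.6% of those of genes tested, and in 10 of 90 matched promoters of all genes called higher (11.1%). Of the 7 called members 6 had a promoter in the table and 4 held the letters. Those 4 are shown, with the matches in capitals, 5′ to 3′ on the strand of the gene, as the promoters of called members that hold the element.
Ifit3, chr19:34583377-34583446, plus strand: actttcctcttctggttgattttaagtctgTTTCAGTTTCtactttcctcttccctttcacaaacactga
Oas1a, chr5:120907526-120907569, minus strand: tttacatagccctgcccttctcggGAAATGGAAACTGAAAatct
Rsad2, chr12:26456533-26456602, minus strand: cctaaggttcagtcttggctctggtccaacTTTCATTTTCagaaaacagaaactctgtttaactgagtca
Bst2, chr8:71537557-71537626, minus strand: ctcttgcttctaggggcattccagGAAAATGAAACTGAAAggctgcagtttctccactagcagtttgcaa
In Oas1a and Bst2 overlapping matches run together into a longer stretch, and in Ifit3 and Rsad2 the letters are those of the opposite strand.

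**Figure D4:**
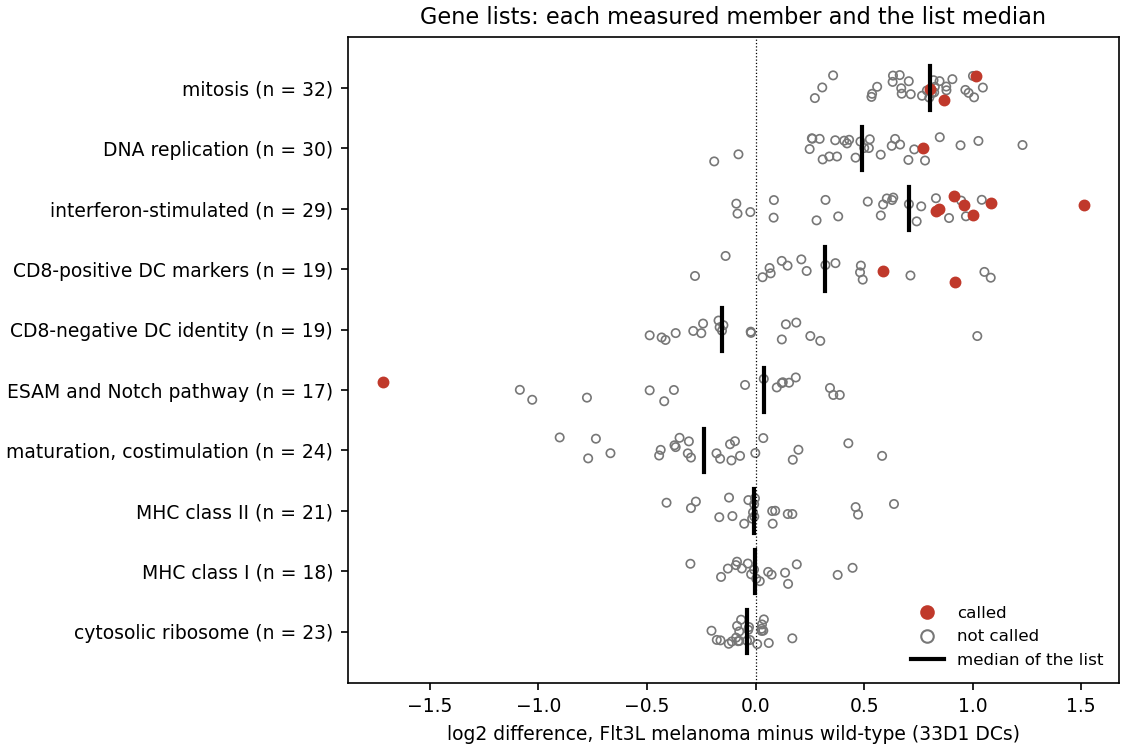
Log2 difference, Flt3L melanoma minus wild-type, of each measured member of 10 gene lists in 33D1 DCs, with called members in red, others open, and a black bar at the list's median. The medians of mitosis (0.80), interferon-stimulated genes (0.71) and DNA replication (0.49) lie to the right of 0, and those of MHC class II (-0.01), MHC class I (0.00) and the cytosolic ribosome (-0.04) lie at 0.

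3 lists of stress and metabolism held 2 or more called genes each, beside 0.851% called higher and 0.158% called lower among all genes tested. Of 15 measured hypoxia genes, 3 were higher: Ddit4, an inhibitor of mTOR signalling (1.30 ± 0.31), Ankrd37, an ankyrin repeat protein (1.14 ± 0.22), and Ndrg1, a stress-responsive protein (0.82 ± 0.16). Without Flt3L replicate 3, 1 of them was called, and leaving out the other arrays 1 at a time gave 0 to 3. Vegfa, the vascular growth factor, had means of 118 in Flt3L mice and 307 in wild-type mice (-1.21, adjusted p = 0.15), and the list's median was 0.10. Ddit4 had 5892, 10601 and 8363 in Flt3L mice, against 3387, 3022 and 3328 in wild-type mice, and kept its call in 1 of 6 leave-one-out fits, Ndrg1 in 2 and Ankrd37 in 4.

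Ddit4 is also a glucocorticoid target, and with Fkbp5 it made up the 2 called genes of 17 measured glucocorticoid-responsive genes (median 0.13), against Fkbp5 alone without Flt3L replicate 3. Fkbp5, a co-chaperone of the glucocorticoid receptor, had 2337, 2304 and 2815 in Flt3L mice, against 1003, 641 and 1196 in wild-type mice (1.38 ± 0.18, adjusted p = 0.00014). All 6 leave-one-out fits called it, and it was called in DEC205 DCs too, by 1.70. Tsc22d3, the glucocorticoid-induced leucine zipper, had 0.68 and was not called.

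Of 28 genes of fatty acid uptake and lipid metabolism 3 were higher and 1 lower, against 0.851% and 0.158% of all genes tested. The list's median was 0.01. Beside Slc27a2 the called genes were Plin2, the coat protein of lipid droplets (1.02 ± 0.19), and Acadl, a dehydrogenase of fatty acid oxidation (0.89 ± 0.14), with Scd1 lower. Without Flt3L replicate 3 the same 3 were called higher and 0 lower. Plin2 had 579, 731 and 1275 in Flt3L mice, against 384, 371 and 378 in wild-type mice, the third Flt3L array being the brightest. DEC205 DCs have more of it, at 7667 in Flt3L mice and 6617 in wild-type mice, and without Flt3L replicate 3 its difference was 0.71, still called. Apoe, the lipoprotein of macrophages (-1.08, adjusted p = 0.15), and Cpt1a, the carnitine acyltransferase of fatty acid import into mitochondria (0.66, adjusted p = 0.087), were not called. The 17 cholesterol synthesis genes had 0 calls and a median of -0.23.

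The antigen presentation genes for which this subset is known were among those with no call. Of 21 MHC class II presentation genes 0 were called and the median was -0.01, with H2-Ab1, a class II chain, at means of 30263 in Flt3L mice and 30962 in wild-type mice. Of 18 MHC class I presentation genes 0 were called, with a median of 0.00, and Tap1, a peptide transporter, came nearest (0.38, adjusted p = 0.052).

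Of 24 maturation and costimulation genes 0 were called. Their median was -0.24, and 19 of 24 differences were below 0. Cd274, the checkpoint ligand PD-L1, had 2370, 1398 and 1840 in Flt3L mice, against 3753, 3859 and 2851 in wild-type mice, with no overlap (-0.90 ± 0.26, adjusted p = 0.115). Cd80 and Cd86, the ligands of CD28, had differences of -0.73 and -0.44.

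Type 2 DC identity genes gave 0 calls of 19 measured, with a median of -0.15, among them Sirpa, the receptor of CD47 (-0.25), and Irf4, a transcription factor of these cells (-0.41). Of 26 genes of Flt3 and colony-stimulating factor signalling, 0 were called, with a median of 0.08, and Kit, the receptor of stem cell factor, had -0.49. The 14 genes of monocyte-related type 2 DCs (0.07), 22 Toll-like receptor genes (-0.08), 27 immediate early and heat shock genes (-0.09), 22 genes of folding in the endoplasmic reticulum (-0.11), 18 of glycolysis (0.13), 28 of the respiratory chain (0.01) and 23 of the cytosolic ribosome (-0.04) had 0 calls each, with the medians given. Of 24 integrins and adhesion genes Esam alone was called, with a median of 0.08.

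The melanoma cells were looked for by 6 measured markers. None was called, and their summed signal was 1398, 1157 and 1199 in Flt3L mice, against 1076, 881 and 1482 in wild-type mice. Pmel, a pigment cell protein, had means of 178 in Flt3L mice and 180.1 in wild-type mice. Gpnmb, a glycoprotein of pigment cells and macrophages, had 513, 328 and 104 in Flt3L mice, against 94.7, 28.7 and 161 in wild-type mice, which overlap (1.27, adjusted p = 0.34). The 6 measured NK cell markers had 0 calls, with sums of 11970, 14847 and 12336 in Flt3L mice and 9668, 10473 and 11852 in wild-type mice. These sums did not overlap. Most of them was Klrd1, with means of 10749 in Flt3L mice and 9244 in wild-type mice, whose arrays overlapped (0.22, not called). The part of NK cells was not tested.

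Markers of erythroid cells were lower in sum, at 4817, 3991 and 4306 in Flt3L mice, against 5413, 5642 and 5479 in wild-type mice. Most of this sum was Tfrc, with 3733, 3070 and 3078 in Flt3L mice, against 3795, 4086 and 4189 in wild-type mice. All 7 of their differences were below 0, with 0 called and a median of -0.39. Markers of myeloid progenitors summed to 7537, 5093 and 7056 in Flt3L mice, against 8080, 7762 and 9467 in wild-type mice, with 0 of 6 called and 4 differences above 0. Kit made up most of that sum, with 6367, 4066 and 5440 in Flt3L mice, against 7049, 6678 and 8272 in wild-type mice. Kit was bright in DEC205 DCs too, at means of 3898 in Flt3L mice and 4708 in wild-type mice. The sums of neither list overlapped between the groups, and the part of these cells in the differences above was not tested. Lists of plasma cells, neutrophils, platelets and mast cells had 0 calls, with medians of -0.10, -0.24, -0.20 and -0.08.

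The same contrast in DEC205 DCs uses other arrays and called 280 genes (2.11%), 162 higher (1.22%) and 118 lower (0.888%). Of the 113 genes higher in 33D1 DCs of Flt3L mice, 40 were called higher in DEC205 DCs too, which is 35.4% of the 33D1 calls and 24.7% of the DEC205 calls. Of the 21 lower genes 5 were shared, 23.8% of the 33D1 calls and 4.24% of the DEC205 calls. No gene was called in opposite directions, and 104 of the 113 and 17 of the 21 had the same sign in DEC205 DCs. Fgfr1, Fkbp5 and Vim are among the shared higher genes, and Esam, Mmp12 and Abcb1a among the shared lower ones.

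A test of the difference between the 2 subsets in their Flt3L effect called 14 genes (0.105%), 7 of which were also called in 33D1 DCs. Slc27a2 had the highest value, an effect in 33D1 DCs minus that in DEC205 DCs of 2.40 ± 0.40 (adjusted p = 0.017). It entered the fit only through the Flt3L arrays of 33D1 DCs, so this test is no independent support for its rise there. Olfm1 rose in both subsets but more in 33D1 DCs, by 2.23 ± 0.26 (adjusted p = 0.00036). Mtss1, an actin-binding protein that bends membranes, had 188, 177 and 244 in 33D1 DCs of Flt3L mice, against 31.8, 57.4 and 54.5 in those of wild-type mice, an effect of 1.38 there and of -0.57 in DEC205 DCs.

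Sema4a, a semaphorin, Frmd4b, a FERM-domain protein, and Ms4a4b, a membrane protein abundant in T cells, were the other genes that rose in 33D1 DCs and differed between subsets, by 1.43, 1.19 and 1.08. Rtl8c went the other way. It had 592, 461 and 641 in 33D1 DCs of Flt3L mice, against 1372, 1255 and 1045 in those of wild-type mice, whereas DEC205 DCs had means of 6796 in Flt3L mice and 4832 in wild-type mice (0.49, not called). The difference between the subsets was -1.55 ± 0.23 (adjusted p = 0.0048). The lower Esam did not differ between subsets by the test (-0.87, adjusted p = 0.49).

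**Figure D5:**
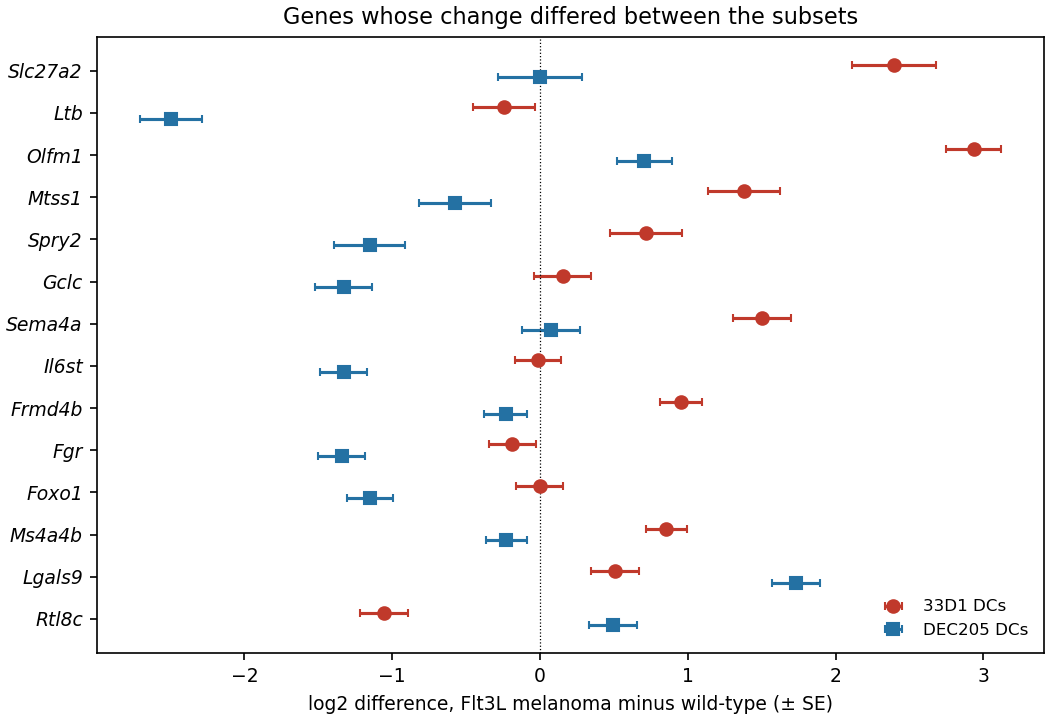
Log2 difference, Flt3L melanoma minus wild-type, with standard errors, in 33D1 DCs (red circles) and DEC205 DCs (blue squares) for the 14 genes whose effect differed between the subsets. Slc27a2 lies at 2.39 in 33D1 DCs and at 0.00 in DEC205 DCs, and Rtl8c at -1.06 and 0.49. Slc27a2 passed the filter only through the Flt3L arrays of 33D1 DCs.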

How the data were processed

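The deposited table holds probe set intensities on a linear scale; per the submitters' processing notes, the authors used GCOS and MAS5, whose versions are not known here. The 2% trimmed mean of each array was 500 signal units. Probe sets with 1 gene symbol (34945 of 45101) were kept where the signal exceeded 156.3, the table's median, on at least 3 of 21 arrays, and the probe set with the highest mean stood for each of 13284 genes. All 21 arrays entered 1 fit of 7 group means on log2(signal + 48.6), with limma 3.58.1 in R 4.3.3 (lmFit, eBayes with trend, 14 residual degrees of freedom, two-sided tests, Benjamini-Hochberg). On simulated data with these 13284 genes, 58% of 2-fold rises, 70% of 2-fold falls and 96% or more of 4-fold changes were recovered, and 12 of 174 calls were false. MAS5 detection calls were not used.

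The named genes were the 15 highest and 15 lowest called differences without overlap (unnamed clones passed over) and up to 4 called members of each list. To these came the 5 highest called differences between subsets and the only 2 called lower. The sort and definition genes, and called or bright markers of other cells, were named as well. Other genes were picked after their values were seen. The members and gene lists were chosen with earlier results of these data known. For 23 of the 49 called named genes further probe sets passed the filter, and for 11 of the 23 at least 1 of these was called in the same direction, for 0 in the opposite one. The other probe set of Scd1 and 1 of the 5 others of Mtss1 had the opposite sign, not called. Same-numbered Flt3L and wild-type arrays of 33D1 DCs deviated from their group means with r of 0.11, -0.06 and 0.08. Their numbers were therefore not taken as pairs. Whether 33D1 and DEC205 arrays of a mouse group shared pools is not in the labels and was not examined. The test of the difference between subsets treats them as independent. Promoter sequences and starts come from RefSeq (GRCm38.p6).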

Additional observations from a re-analysis of the deposited data

Results flagged for a closer look

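Results are given here where the Flt3L effect in 33D1 DCs differed from that in DEC205 DCs by the limma test of the difference itself (adjusted p under 0.05). The effect in 33D1 DCs minus that in DEC205 DCs was 2.40 for Slc27a2, 2.23 for Olfm1, 1.96 for Mtss1, 1.43 for Sema4a, 1.19 for Frmd4b, 1.08 for Ms4a4b and -1.55 for Rtl8c, the 7 genes also called in 33D1 DCs. Slc27a2 passed the filter only through the Flt3L arrays of 33D1 DCs, so among genes tested its rise there was set in advance. For the other 7 genes the effect in 33D1 DCs was not called. The difference was 2.25 for Ltb, which encodes lymphotoxin beta, with effects of -0.24 in 33D1 DCs and -2.50 in DEC205 DCs. It was 1.87 for Spry2, an inhibitor of receptor tyrosine kinase signalling (0.72 in 33D1 DCs and -1.15 in DEC205 DCs). It was 1.48 for Gclc, an enzyme of glutathione synthesis (0.15 and -1.33), and 1.32 for Il6st, the signalling chain of the interleukin 6 receptor family (-0.01 and -1.33), in the same order of subsets. It was 1.15 for both Fgr, a Src family kinase (-0.19 and -1.34), and Foxo1, a transcription factor (0.00 and -1.15), and -1.23 for Lgals9, which encodes galectin-9 (0.51 and 1.74). Ltb is abundant in 33D1 DCs, at means of 13072 in Flt3L mice and 15460 in wild-type mice, and DEC205 wild-type replicate 3 holds more transcripts of 33D1 DCs than the other DEC205 arrays. Without that array and 33D1 Flt3L replicate 3 the test called 2 genes higher and 1 lower. The part of these arrays in each difference was not tested.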

How the results depend on the processing

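No difference of a named called gene changed sign under any alternative run. Of the 49 named genes called in 33D1 DCs, 44 kept their call under quantile normalization, 42 under median centring, 37 and 47 with offsets of 16 and 200 in place of 48.6, 40 without the filter on dim probe sets, 34 without the intensity trend and 44 with the 12 DC arrays or the 6 33D1 arrays alone. With 1 array left out, 39, 24 and 35 kept it without Flt3L replicates 1, 2 and 3, and 30, 28 and 27 without wild-type replicates 1, 2 and 3. The counts of genes called higher were 70 without the intensity trend of the variance, 202 with only the 12 DC arrays in the fit and 219 with only the 6 33D1 arrays, and 70 without the 2 arrays that hold transcripts of the other subset, an alternative chosen after seeing the data. The counts called lower were 58 with the offset of 200, 50 with every probe set tested on its own, 56 with the 12 DC arrays and 67 with the 6 arrays. Leaving out 1 array gave 44 to 78 genes higher, the fewest without Flt3L replicate 2, and 9 to 33 lower, the most without Flt3L replicate 1. Fewer arrays per group were at hand in those fits; otherwise the cause was not tested.

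The test of the difference between subsets called 6 genes higher with the offset of 16, 24 higher and 10 lower with that of 200, and 5 higher and 1 lower without the trend. It called 1 lower under median centring and with every probe set on its own, and 2 higher and 1 lower without the 2 mixed arrays. With 1 array left out it called 2 to 12 higher and 1 to 3 lower. Of the 7 named genes of this test (Slc27a2, Ltb, Olfm1, Mtss1, Spry2, Lgals9 and Rtl8c), 3 to 6 kept their call then. Sema4a, Frmd4b and Ms4a4b were not followed one by one in these fits. A fit with the replicate number as a block, which the labels do not show to be a pairing, gave 99 genes higher and 20 lower over the 21 arrays, 157 higher and 44 lower over the 6 arrays, and 7 higher and 1 lower for the difference between subsets; the arrays did not all correlate best with their own number. With 3 arrays a group, and dim genes such as Scd1, Qpct and Fntb under or near the table's median signal, changes near 2-fold can be missed.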
